A study of Rattus norvegicus with 5 samples.

Results

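The genes described here are 4 adhesion molecules by which blood leukocytes hold on to activated cells, Icam1, Vcam1, Sele (E-selectin) and Selp (P-selectin), and Nfkbia, the gene of the NF-kB inhibitor IκBα, in rat lung after exposure to urban dust. They were taken by name: every probe set that the platform annotation assigns to 1 of these 5 symbols was used, with no regard to its value. This gave 8 probe sets of 8740, namely a pair each for Icam1, Vcam1 and Nfkbia and a single one each for Sele and Selp. Lung RNA was hybridised to 5 one-colour oligonucleotide arrays. Exposed rats had EHC-93, an urban outdoor dust, instilled into the trachea, and their RNA was pooled as an early (2, 4 and 6 h), an intermediate (15, 18 and 21 h) and a late (24, 32 and 40 h) array. Sham rats, whose pool came from 2, 15 and 24 h, had saline instilled, so no control matches the early hours alone, and the untreated array held RNA of 3 rats without instillation. Every array thus measured a pool of lung RNA. The number of rats behind the instilled pools, their strain and their age are nowhere stated in the sources used here.

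Leukocytes leave the blood in steps. Selectins on endothelium first slow them to rolling, after which ICAM-1 and VCAM-1, both members of the immunoglobulin superfamily, bind integrins on the leukocyte and stop it. The genes of these molecules are classical targets of NF-kB, a transcription factor held in the cytoplasm by IκBα until inflammatory signals cause that inhibitor to be destroyed. Nfkbia is itself an NF-kB target, which makes it part of a feedback loop. In the lung, ICAM-1 is also present on the alveolar epithelium, and P-selectin is stored ready-made in endothelial cells and platelets.

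Because these genes share a regulator, their promoter sequences were read for NF-kB-like letters. RefSeq promoter windows of the rat build GRCr8, each holding 250 bases before and 50 after the start site, were found for Icam1, Vcam1, Nfkbia and Sele. The string GGNANTTCC, in which N stands for any base, was searched on both strands; it was settled on after these windows had been read. It was found at 2 places for Icam1, 1 for Vcam1, 2 for Nfkbia and 0 for Sele. The 250 bases before the start of the first 3 genes are shown 5′ to 3′ on the gene's strand, with the matched letters in capitals; Icam1 lies at chr8:27829595-27829844 on the plus strand, Vcam1 at chr2:206742784-206743033 on the minus strand and Nfkbia at chr6:78597073-78597322 on the minus strand.
Icam1: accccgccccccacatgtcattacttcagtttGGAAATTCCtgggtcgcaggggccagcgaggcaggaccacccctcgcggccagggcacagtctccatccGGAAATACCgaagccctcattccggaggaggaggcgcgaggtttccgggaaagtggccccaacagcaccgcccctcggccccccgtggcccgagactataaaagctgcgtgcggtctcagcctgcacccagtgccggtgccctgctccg
Vcam1: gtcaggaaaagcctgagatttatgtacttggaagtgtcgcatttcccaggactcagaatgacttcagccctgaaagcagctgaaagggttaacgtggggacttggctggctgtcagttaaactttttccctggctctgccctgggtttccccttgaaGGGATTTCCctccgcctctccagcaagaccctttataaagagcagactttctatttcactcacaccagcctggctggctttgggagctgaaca
Nfkbia: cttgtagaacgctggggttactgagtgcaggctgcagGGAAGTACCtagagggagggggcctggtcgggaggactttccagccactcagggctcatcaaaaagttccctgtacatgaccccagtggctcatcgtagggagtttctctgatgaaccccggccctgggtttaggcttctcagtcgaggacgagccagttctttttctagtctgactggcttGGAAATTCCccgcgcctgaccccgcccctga

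The Nfkbia match GGAAATTCC began 31 bases before the start site, and the same 9 letters stood 218 bases before that of Icam1. Vcam1 held GGGATTTCC at 93 bases. The second places, GGAAATACC in Icam1 at 149 bases and GGAAGTACC in Nfkbia at 213 bases, match on the other strand. The longer NF-kB consensus motif, which overlaps the 9-letter string, was found once in Vcam1 at 93 bases and once in Nfkbia at 31 bases, and had no match in the Icam1 and Sele windows. Of all 33469 windows, 4.44% held the 9-letter string and 4.18% the consensus. Among 3014 genes measured here that had a window, 5.28% held the string and 5.28% the consensus. Among the 73 of those genes that were at least 2-fold higher on the early array than on both controls, 6 (8.22%) held the string and 7 (9.59%) the consensus. Nfkbia is itself among the 73, the 6 and the 7, and its window was read before the string was settled on. For Icam1, Nfkbia and Sele the start site of the window lies inside the gene's span in the RefSeq gene table, so the distances hold for that start and may differ for other annotated ones. These are matches of letters, not measured binding.

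**Figure D1:**
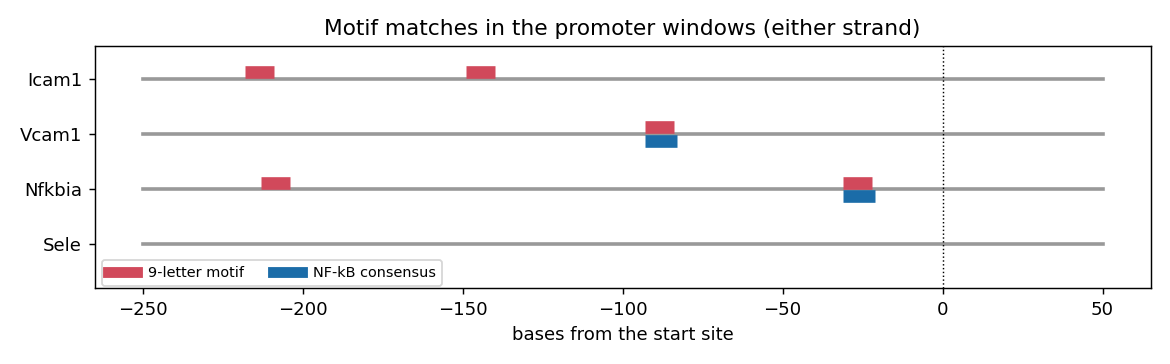
Positions of the motif matches in the promoter windows of Icam1, Vcam1, Nfkbia and Sele, drawn against the distance in bases from the start site; grey lines are the windows, red bars the 9-letter string and blue bars the NF-kB consensus, on either strand. Nfkbia has a match of each kind 31 bases before the start, and Vcam1 has them at 93 bases. Icam1 has the 9-letter string alone at 218 and 149 bases. The Sele window used here has none.

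Values below are intensities scaled to a common array median. The scale differs from probe set to probe set, so levels are compared only between arrays. A value under 172.53, the 40th percentile of all scaled values, was set to that floor, and a fold against it is a lower bound. Of the 8 probe sets, 7 were above the floor somewhere: 6 on every array and that of Selp on 4. Sele was under it on all 5. With 1 array a group, a difference between arrays has no replicate error, and a probe set is called higher or lower where it differed at least 2-fold from both the sham and the untreated array. For scale, these control arrays differed from each other by 1.16-fold at the median of 6188 probe sets and by less than 1.87-fold for 95% of them. The ratio of 5′ to 3′ signal of a control transcript falls when RNA is incomplete; for beta-actin it was 43.1% on the early array and between 9.07% and 24.4% on the others, and for GAPDH 67.2% against 23.6% to 39.1%. The early array, which carries the high values of these genes, thus also had the highest ratios, and their part in the results was not tested.

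Nfkbia, which encodes the inhibitor, had the largest early differences of the 4 genes above the floor by the smaller of the comparisons with the controls, though not over sham alone, where the bound for Selp was higher. Its probe set X63594cds_at read 5754 (early), 2120 (intermediate) and 1971 (late) after dust, and 2013 (sham) and 1339 (untreated) without it. The early array stood alone, above the other 4, which ran from 1339 to 2120. It exceeded sham 2.86-fold and untreated 4.30-fold, and 64 of the 6188 probe sets had a larger difference by the smaller of the comparisons with the controls. The second probe set, X63594cds_g_at, comes from the same sequence record and is no independent measurement. It read 7182, 4503, 3957, 3279 and 2552 in the same order, so that here all 3 exposed arrays were above both controls. Its early array was 2.19-fold above sham and 2.81-fold above untreated. That call fell short with scaling to the 75th percentile (1.93-fold over sham) or quantile normalization (1.97-fold), whereas X63594cds_at kept at least 2.52-fold over sham under every scaling tried.

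Within the exposed series, X63594cds_at was 2.71-fold and 2.92-fold higher on the early than on the intermediate and late arrays, a comparison that uses neither control. It was the 1 probe set of the 7 at least 2-fold above both later arrays, against 2.57% of all probe sets. For X63594cds_g_at these ratios were 1.60-fold and 1.81-fold. Saline instillation went with a smaller difference: sham was 1.50-fold (X63594cds_at) and 1.28-fold (X63594cds_g_at) above untreated, within the range that 95% of probe sets kept. The intermediate and late arrays were 1.05-fold and 0.98-fold of sham for X63594cds_at and 1.37-fold and 1.21-fold for X63594cds_g_at.

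**Figure D2:**
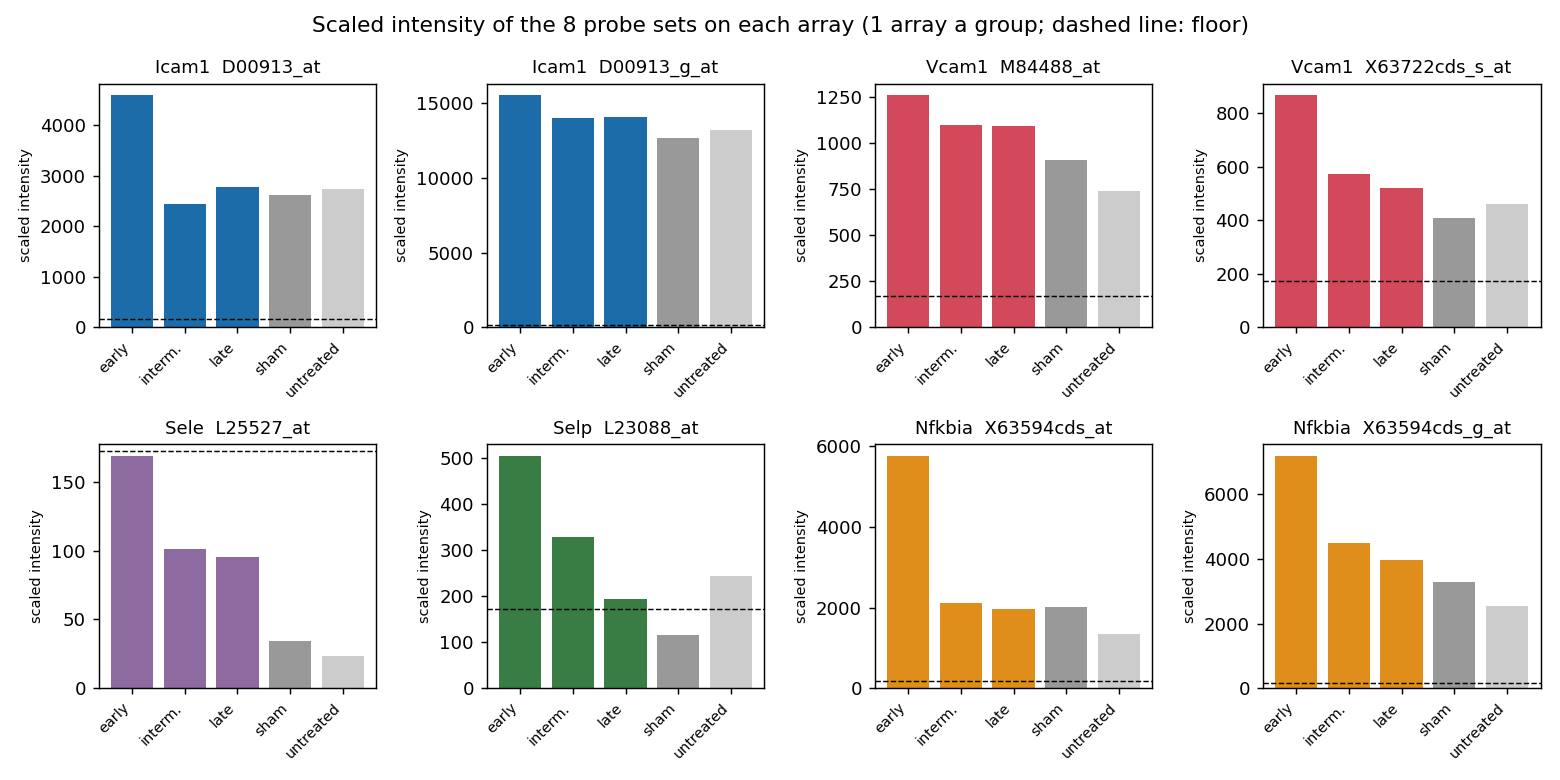
Scaled intensity of each of the 8 probe sets on the 5 arrays, as bars from 0 with a separate axis for each probe set; coloured bars are exposed arrays, dark grey is sham, light grey is untreated, and the dashed line is the floor at 172.53. The early bar is the tallest in the 7 panels that rise above the floor, and all bars of Sele stay under the floor.

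Selp encodes the selectin that endothelium and platelets move to their surface within minutes. Its probe set L23088_at read 504 (early), 329 (intermediate) and 194 (late) after dust, 243 untreated, and 115, under the floor, on sham. The early value exceeded untreated 2.07-fold and sham at least 2.92-fold, which made it a call. The call was narrow: with the values as deposited, 75th percentile scaling or quantile normalization the early array was 1.98-fold, 1.99-fold and 1.99-fold above untreated. The intermediate value exceeded untreated 1.35-fold and sham at least 1.90-fold. The late array was 0.80-fold of untreated, so the sequence over time ended beneath one of the controls. The controls themselves differed, the untreated value being at least 1.41-fold above sham.

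Sele, the selectin that endothelium makes anew when it is activated, could not be measured at this floor. Its probe set L25527_at had deposited intensities of 166.4 (early), 94.9 (intermediate) and 92.3 (late) after dust, and 36.5 (sham) and 24.3 (untreated) without it. All lie among values that have no order under the floor used, and no fold is given from them. With the floor lowered to the 20th percentile, 55.9, both controls were under the floor and the 3 exposed arrays above it, and the early array was at least 3.02-fold above each control.

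Vcam1, whose protein holds lymphocytes, monocytes and eosinophils through the integrin VLA-4, was read by probe sets from different sequence records. X63722cds_s_at read 868 (early), 574 (intermediate) and 522 (late) after dust, and 407 (sham) and 461 (untreated) without it. It was 2.13-fold above sham but 1.88-fold above untreated, and so was not called. M84488_at read 1259, 1099, 1094, 910 and 741 in the same order. Its early array was 1.38-fold and 1.70-fold above the controls. Both probe sets placed all 3 exposed arrays above both controls, and both had the early array on top with the later ones close together: intermediate over late was 1.10-fold and 1.01-fold. They disagreed on which control was lower.

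Icam1, whose protein binds the leukocyte integrins LFA-1 and Mac-1, was read by a pair of probe sets from the same record that gave different sizes. D00913_at read 4592 (early), 2449 (intermediate) and 2781 (late) after dust, and 2627 (sham) and 2743 (untreated) without it. The early array was 1.75-fold above sham and 1.67-fold above untreated, under the threshold, and the other 4 arrays lay between 2449 and 2781. D00913_g_at read 15527, 14028, 14098, 12699 and 13226 in that order, with the early array 1.22-fold and 1.17-fold above the controls. On the early array 336 probe sets had a larger difference than D00913_at and 1255 a larger one than D00913_g_at. D00913_at was 1.88-fold and 1.65-fold higher on the early than on the intermediate and late arrays.

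Taken over the 7 probe sets above the floor, 3 were called higher on the early array, belonging to Nfkbia and Selp, while 3.17% of all 6188 probe sets were. None was called lower there, against 0.452%. On the intermediate array 0 were called higher, against 0.824%, and 0 lower, against 0.339%. The late array likewise had 0 higher, against 0.566%, and 0 lower, against 0.953%. By this floor none differed 2-fold between sham and untreated; Selp, whose sham value is a bound, did with the floor at the 20th percentile (-1.08 on the log2 scale, sham lower). Over all probe sets 1.66% of probe sets were higher and 1.92% lower on sham. By any amount, all 7 had their highest value on the early array, as did 22.8% of all probe sets. Early, intermediate and late values lay above both controls for 7, 6 and 5 of them, against 36.7%, 44.9% and 42.7% of all. For 4 of the 7, both of Vcam1 and 1 each of Icam1 and Nfkbia, all exposed arrays lay above both controls, against 15.1% of all. The 7 come from 4 genes, and 4 of them share their sequence record with another, so they are not 7 independent measurements.

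Measured from the mean of the controls, the median log2 difference of the 7 was 1.0 early, with a range from 0.26 to 1.81, against 0 over all probe sets. On the intermediate array it was 0.40 (-0.13 to 0.68) against 0.07, and on the late array 0.26 (-0.08 to 0.45) against 0.05. Differences of each exposed array fell in the order early, intermediate, late for both Nfkbia probe sets, Selp and both of Vcam1, though the intermediate and late values of M84488_at were nearly equal at 0.42 and 0.41. For Icam1 the late value lay slightly above the intermediate one, at 0.05 against -0.13 for D00913_at and 0.12 against 0.11 for D00913_g_at.

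**Figure D3:**
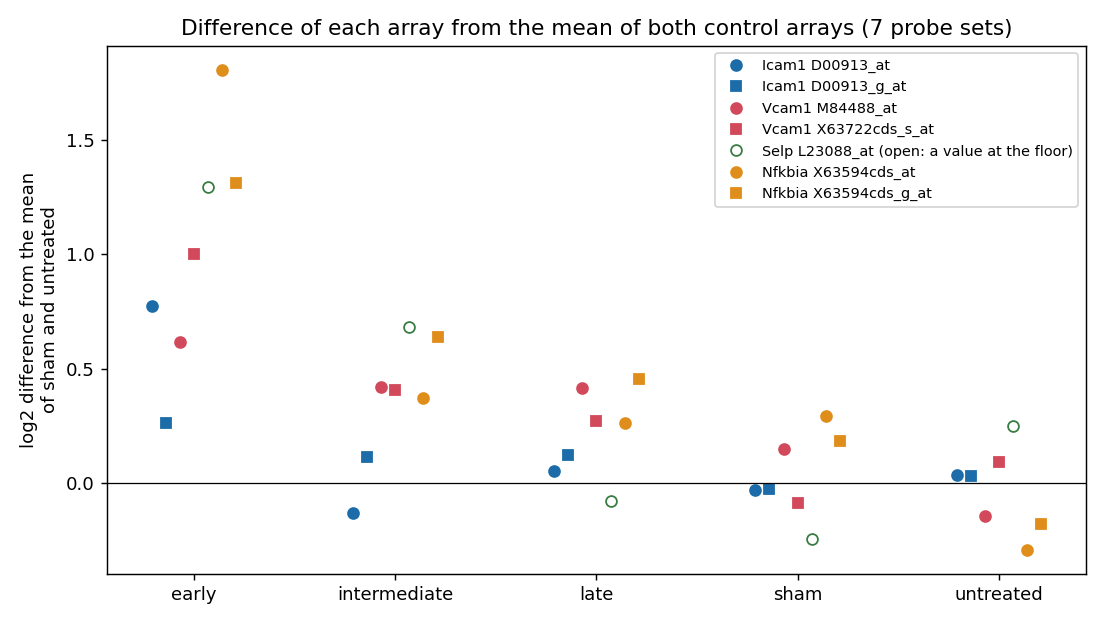
Log2 difference of each array from the mean of the sham and untreated arrays, for the 7 probe sets above the floor; circles and squares in a colour are probe sets of the same gene, and open symbols mark Selp, whose sham value is at the floor. The early points run from 0.26 to 1.81, and the intermediate and late points lie between -0.13 and 0.68.

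**Figure D4:**
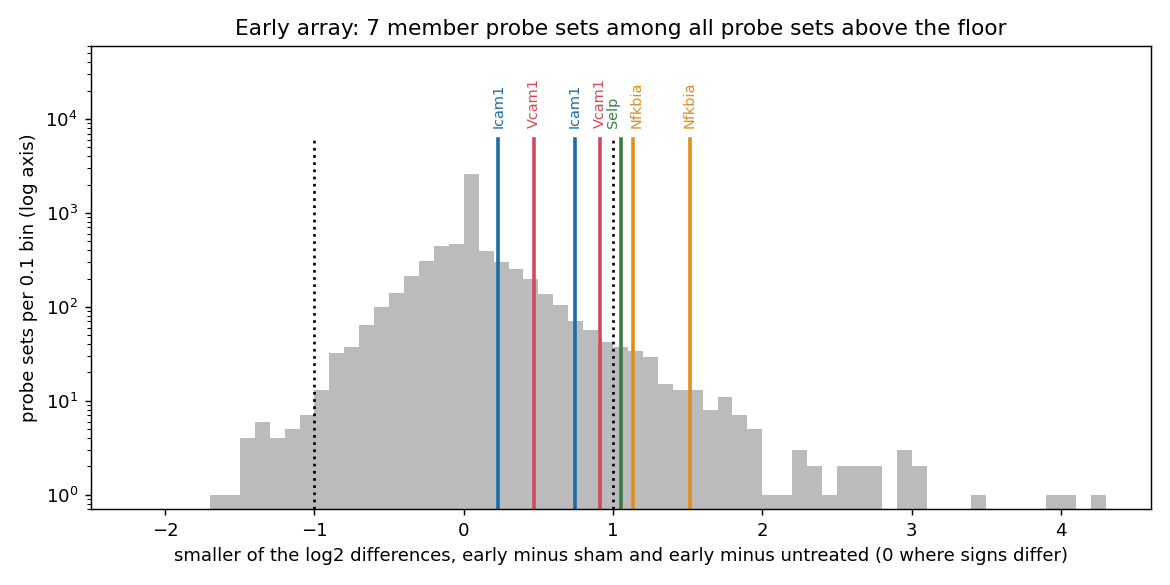
Histogram, on a log axis, of the smaller of the log2 differences of the early array from sham and from untreated over 6188 probe sets, with coloured lines at the 7 probe sets of Icam1, Vcam1, Selp and Nfkbia and dotted lines at 2-fold. Both Nfkbia probe sets, at 1.51 and 1.13, and Selp, at 1.05, lie past the upper dotted line, and the others lie between 0.23 and 0.91.

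The one comparison with a residual error, 3 exposed against 2 unexposed arrays, averages over the phases. By limma with Benjamini-Hochberg adjustment over 6188 probe sets, no probe set passed at 0.05, and 428 had an unadjusted p under 0.05 (6.92%). The log2 difference of exposed from unexposed arrays was 0.80 ± 0.30 (SE) for Nfkbia X63594cds_g_at (limma adjusted p = 0.714) and 0.48 ± 0.16 for Vcam1 M84488_at (limma adjusted p = 0.714); these are the 2 of the 7 with an unadjusted p under 0.05 in limma, and in both all 3 exposed arrays were above both unexposed ones. The early array alone set X63594cds_at apart, which had a similar difference of 0.81 but an SE of 0.54 (limma adjusted p = 0.844). Selp had 0.63 ± 0.44, Vcam1 X63722cds_s_at 0.56 ± 0.26, Icam1 D00913_at 0.23 ± 0.30 and D00913_g_at 0.17 ± 0.13 (SE), with limma adjusted p from 0.780 to 0.889. Leaving out the early array moved several of these: Nfkbia X63594cds_at to 0.32, Selp to 0.30, Vcam1 X63722cds_s_at to 0.34 and Icam1 D00913_at to -0.041. Nfkbia X63594cds_at was also 0.52 without the untreated array, Selp 0.38 without sham and 0.99 without the late array, and Icam1 D00913_at 0.41 without the intermediate array.

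Of the genes that act before NF-kB, the ligands were higher on the early array. Genes were counted by their brightest probe set, by which 2.54% of 3667 genes were called higher and 0.300% lower on the early array. All 3 measured ligands of 8 listed were called: Il1b, at 4479 on the early array, was 3.96-fold above sham and 6.48-fold above untreated, Il1a 2.61-fold and 3.07-fold, and Tnf at least 2.11-fold. Tnf was above the floor on the early array alone, so it could count as measured only by being high there. Il1b was also called on the intermediate array, where 0.873% of genes were higher, at 3.05-fold and 4.99-fold. These ligands bind receptors that set off the destruction of IκBα. The other Il1b probe sets were also highest on the early array, M98820_g_at at 2379 against 376 (sham) and 384 (untreated) and E01884cds_s_at at 1171 against 240 and, under the floor, 125.

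Among 10 measured receptors, adaptors and kinases of 24 listed, Cd14, the co-receptor for bacterial lipopolysaccharide, was the 1 called higher on the early array, at 1455 against 681 (sham) and 600 (untreated), and 0 were lower. The list had a median log2 difference of 0.32, against -0.01 over all genes. A second Cd14 probe set, AF087944mRNA_s_at, read 722 against 415 and 364 and stayed under 2-fold. Tnfrsf1a, the main receptor for TNF, exceeded sham 2.25-fold and untreated 1.91-fold and was not called. Il1r1, a receptor for IL-1, was under the floor on all 5 arrays in each of its 4 probe sets, and so was not measured. Of the transcription factor's own subunits and other inhibitors, 1 of 12 listed genes was on the array: Nfkb1, the p50 subunit and its precursor, read 2552 (early), 1716 (intermediate) and 1769 (late) after dust, and 1547 (sham) and 1817 (untreated) without it, 1.65-fold and 1.40-fold. RelA, RelB and the IκB kinases were thus not measured as named genes.

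Leukocyte counter-receptors and other adhesion molecules had no calls by their brightest probe sets. Of 6 measured counter-receptors of 13 listed, 0 were called in either direction on any exposed array. Over all genes 0.218% were lower on the intermediate array, and 0.600% were higher and 1.04% lower on the late array. The list had median log2 differences of -0.02 (early), 0.24 (intermediate) and 0.13 (late), against -0.01, 0.09 and 0.07 over all genes. Itgb1, the β chain that VLA-4 uses to bind VCAM-1, had 1.20-fold and 1.15-fold on the early array. Cd24, a P-selectin ligand, had 0.95-fold and 0.72-fold there by its brightest probe set. Its other probe sets lay between the controls. U49062_g_at read 3102 against 2460 (sham) and 4055 (untreated), and rc_AI171462_s_at read 2162 against 1683 and 2516. Pecam1 came near a call on the early array, at 2.83-fold over sham and 1.90-fold over untreated. Selplg and Itgb2, the main partners of P-selectin and ICAM-1, were not measured as named genes. Of 7 measured other adhesion molecules of 18 listed, 0 were called on any exposed array, with medians of 0.02, -0.06 and 0.20 in the same order. The brightest probe set of Alcam was 1.11-fold and 1.01-fold of sham and untreated on the early array, but its other probe sets were lower there: X95850mRNA_g_at read 416 against 1158 and 1062, past the 2-fold rule, and X95850mRNA_at 1032 against 2224 and 1836. Cd47 was 1.22-fold and 1.06-fold, and its second probe set AF017437_g_at read 747 against 775 and 853. Icam2 went the other way, at 149, under the floor, on the early array against 366 (sham) and 318 (untreated). With the early value set to the floor this was 0.47-fold and 0.54-fold, short of a call. Both are upper bounds here, because the early value is the one at the floor. The missing call thus rests on the floor.

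**Figure D5:**
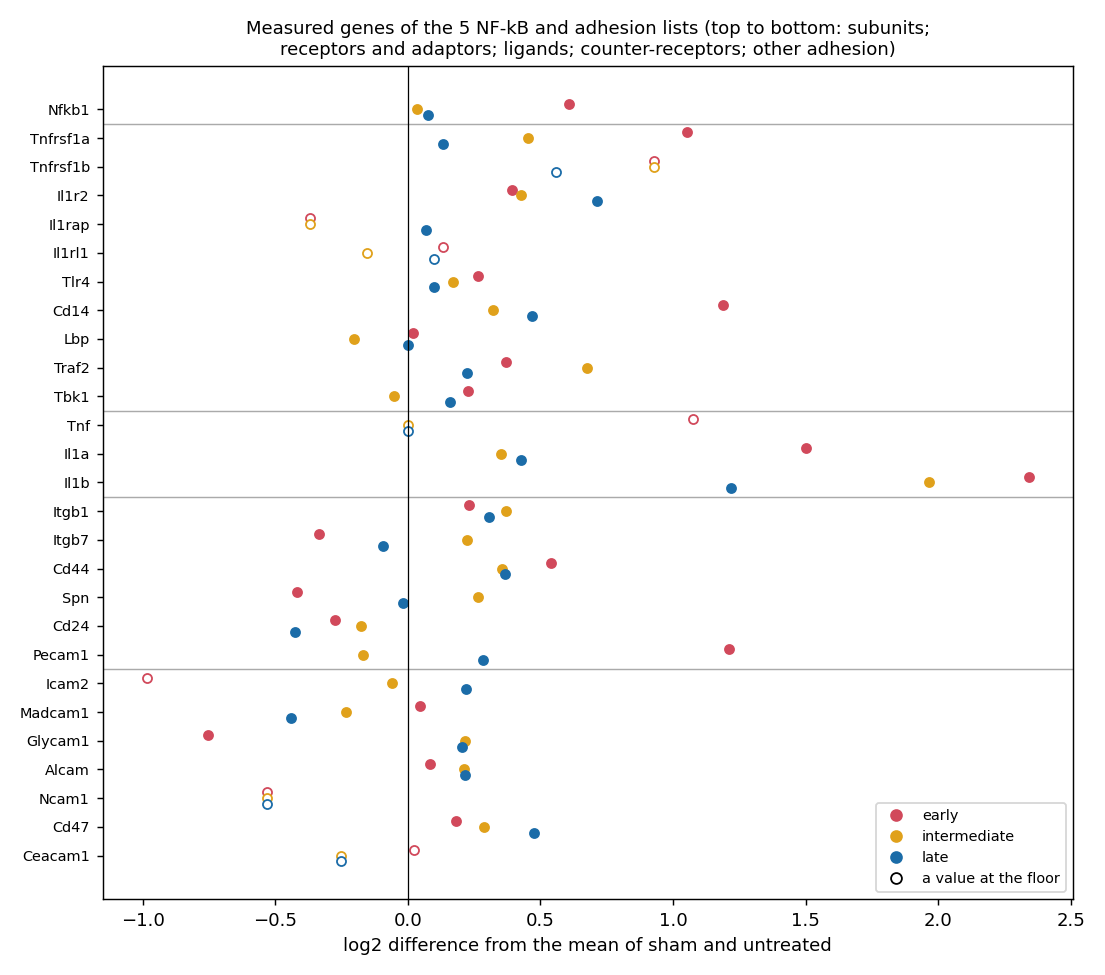
Log2 difference of the early (red), intermediate (yellow) and late (blue) arrays from the mean of sham and untreated for each measured gene of the 5 lists, by its brightest probe set; open circles rest on a value at the floor. The early points of Il1b, Il1a, Tnf, Cd14, Tnfrsf1a and the counter-receptor Pecam1 lie past 1. Counter-receptors and other adhesion molecules lie on both sides of 0.

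The pools hold RNA of the lung as a whole, so more RNA per cell and more cells of a type cannot be told apart. Markers of endothelium, the tissue in which both selectins are made, summed to 11641 on the early array against 9347 on sham and 9574 on untreated over 8 measured of 14 listed; 1 of the 8, the vasoconstrictor endothelin Edn1, was called higher, and the list's median log2 difference was 0.13. A second probe set of Thbd, the thrombin receptor thrombomodulin, read 1455 (U90121_at) against 616 and 535, past the 2-fold rule, while the brighter one that was counted read 711 against 714 and 819. Other endothelial genes lay on different sides of the controls. Pecam1 read 1222 on the early array against 432 and 644, Kdr 1950 against 1741 and 2219, and Nos3 311 against 521 and 382. Less bright Nos3 probe sets differed from that: AF110508_at read 289 against 225 and, under the floor, 73, while U02534_at read 238 against 246 and 266. Vwf was under the floor on all arrays but the untreated one. Platelet markers, also a source of Selp, summed to 2227 early against 2537 (sham) and 1899 (untreated), with 0 of 3 measured called. All 3 measured neutrophil markers, S100a8, S100a9 and Padi4, were called higher on the early array, summing to 5928 against 2567 and 1977, while Cxcr2 and Mmp8 were under the floor throughout. On the intermediate array 2 of the 3 were called higher (sum 5480), against 0.873% of genes. On the late array 1 was (sum 3617), against 0.600%. Padi4 was called on every exposed array and was highest on the intermediate one, at 1432 against 957 early. Macrophage and monocyte markers summed to 45959 on the early array against 53549 and 49166 (0 of 3 called), a sum that is almost wholly Lyz2, at 44778 against 52966 and 48269. Fcgr2b read 925 against 367 and 564, and Ctsk 255 against 216 and 333. On the late array 2 of the 3, Fcgr2b and Ctsk, were called higher, at 1417 and 709, against 0.600% of genes. Since scales differ between probe sets, every such sum follows its brightest members. The alveolar type 1 markers, which mark an epithelium carrying ICAM-1, summed to 48407 on the early array against 41714 and 39469 (1 of 4 called higher, Cav1). Cav1 was called lower on the intermediate array, at 317 against 808 and 783, as were 0.218% of genes. The part of these cell types in the differences of the 5 genes was not tested. The 6 lung epithelial markers, the surfactant genes among them, were above the floor on all 5 arrays. They summed to 155946 early, 203516 intermediate and 202392 late, against 172950 (sham) and 161643 (untreated), with 0 called on any exposed array.

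The genes nearest in pattern were found by the root mean square difference of mean-centred log2 values over the 5 arrays, among 2783 genes above the floor on all of them. The brightest probe sets of Nfkbia and Selp spanned at least 1 log2 unit over the arrays and were used. For Nfkbia the nearest were Atic, an enzyme of purine synthesis (distance 0.06), Trib3, a stress-induced pseudokinase (0.08), and Slc7a5, an amino acid transporter (0.11). Atic read 1430 (early), 804 (intermediate) and 724 (late) after dust, and 619 (sham) and 451 (untreated) without it. The Selp profile holds a sham value set to the floor, so its distances and their order rest on that bound. By it the nearest were Dnajb9, a chaperone of the endoplasmic reticulum (0.19), the TNF receptor Tnfrsf1a (0.19) and Vmp1, a membrane protein of autophagy (0.20). With 5 points many genes can lie this near, and the distances are descriptions.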

How the data were processed

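One-colour oligonucleotide arrays of rat lung RNA were analysed, 1 per group, each hybridised with a pool per the labels' protocols. The authors deposited 1 linear intensity per probe set and array; how the software arrived at it is not stated in the sources used here. That the authors scaled arrays is read from the deposited values, whose trimmed means (2% off either end) ran from 1001.38 to 1001.63.

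Of 8799 probe sets, 59 controls were left out. A platform annotation named 7006 of the remaining 8740 with 1 symbol; 308 with several and 1426 not listed stayed unnamed. Entrez identifiers of 6985 were found in RefSeq's GRCr8 gene table, with 0 symbols changed. Values were scaled to a common median (factors 0.931 to 1.07), floored at the 40th percentile (172.53) and taken to log2; the 6188 probe sets exceeding the floor somewhere were tested. The number of arrays limits precision: the 2-fold rule has no test, and limma 3.58.1 in R 4.3.3 (lmFit, eBayes, Benjamini-Hochberg, threshold 0.05) compared 3 exposed with 2 unexposed arrays. Its p-values measure the spread between arrays only, with phase and sham differences in the residual. Lists used 1 probe set a gene, the one with the highest mean log2 value, which can favour probe sets high on exposed arrays. Named besides the 5 genes were up to 5 called members a list (the 2 brightest where 0 passed) and 3 pattern neighbours of genes spanning at least 1 log2 unit. Tnfrsf1a, Il1r1, Icam2, Pecam1, Kdr and the other marker genes were named after their values were seen. The members and lists were chosen with earlier results of these data known. The steps were tested on simulated data in which changed probe sets moved alike on all 3 exposed arrays. A change on the early array alone was not simulated. Alternatives were the scaling, the floor, the filter, the probe set choice and leaving out arrays. A setting without a floor, log2 of the scaled value plus 32, was chosen after seeing the data.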

Additional observations from a re-analysis of the deposited data

How the results depend on the processing

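Among the 5 genes, Nfkbia X63594cds_at kept its call on the early array under every alternative in which it was tested. Selp and X63594cds_g_at lost theirs under the scalings given above, and Selp also without a floor (1.95-fold above untreated) and with the floor at the 60th percentile. Of the 7 probe sets, 1 was called with 75th percentile scaling and 1 with quantile normalization, and 3 to 4 with either control array left out; Vcam1 X63722cds_s_at was called (1.09 on the log2 scale) when the untreated array was left out. At the later phases 0 were called under every setting. Counted over alternatives, limma differences included, 386 single values of these probe sets kept their label, 7 lost and 2 gained a call. Many of the 386 could not have changed. For a probe set above the floor on every array, a lower floor or another filter returns the same difference between arrays. The 386 is thus no measure of stability. In limma 1 difference turned sign, that of Icam1 D00913_at. It ran from -0.041 (without the early array) to 0.41 (without the intermediate) when arrays were left out in turn. For differences between arrays under the threshold a change of sign was not counted, and several small ones changed sign. The late log2 difference of Icam1 D00913_at from the mean of the controls was 0.051, but -0.0635 as deposited. That of Selp was -0.082, but 0.209 with the floor at the 20th percentile. Adjusted p of the 7 lay between 0.427 and 1 over all limma fits. No paired analysis was possible because each group has 1 array. Without detection calls, values under the floor have no order, which limits Sele and the sham value of Selp.

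Counts over all probe sets moved with the floor. With it at the 20th percentile 330 were higher and 137 lower (early), 205 and 127 (intermediate), and 175 and 182 (late), 570 and 477 on sham against untreated, and 286 and 157 on the early against both later arrays. At the 60th percentile these were 124 and 7 for early, 1 lower for intermediate, 19 and 28 for late, 21 and 31 for sham, and 103 and 19 for early against later. With 1 probe set a gene they were 93 and 11, 32 and 8, 22 and 38, 57 and 59, and 65 and 26, with fewer features tested. Without a floor, 96 were lower for early, 108 higher and 99 lower for intermediate, 89 and 140 for late, 325 and 290 on sham, and 101 lower on the early than on both later arrays. Probe sets above the floor on all arrays gave 16 lower for early, 8 lower for intermediate and 45 and 78 for sham. Values as deposited gave 30 higher and 40 lower for intermediate and 91 lower for late, and 75th percentile scaling 35 lower for intermediate. The higher share of intermediate calls was 70.8%, against 42.9% as deposited, 55.2% after quantile normalization and 51.4% with scaling to the 75th percentile, and that of late calls 37.2% against 23.5% as deposited; the median of all probe sets on the intermediate array was 0.07 and -0.05 as deposited. Leaving out either control gave 293 to 315 higher and 117 to 135 lower for early, 136 to 147 and 77 to 108 for intermediate, and 105 to 123 and 145 to 163 for late. Limma called 1 probe set among those above the floor on all arrays, 3 with no filter, and 0 without any single array; the cause was not tested.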
